A study of Homo sapiens with 12 samples.

Results

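The MYC-MAX network is a small set of DNA-binding proteins that work in pairs. Its members here are 9 gene symbols in the count files, namely MYC, MAX, MXI1, MXD1, MXD3, MXD4, MNT, MGA and MLX, out of 26364 genes in all. They were chosen by name, with earlier results of these data known. All 9 had enough counts to be tested, among 12858 genes that had.

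All these proteins share a basic helix-loop-helix leucine zipper, through which they dimerise and bind the E-box, a short palindromic DNA motif. MYC binds with MAX and raises transcription of genes for growth, ribosome making and the cell cycle, while the MXD proteins, MXI1 and MNT bind with MAX at the same motif and bring in the SIN3-HDAC corepressor. MGA pairs with MAX inside a Polycomb complex, and MLX is a second hub that pairs with the glucose-responsive factor MondoA and with some MXD proteins and MNT. In the gut, MYC is known as a target of Wnt signalling in dividing crypt cells, and MXD genes are known to come on as cells differentiate. PRDM1, a zinc finger repressor, is known to repress MYC in B cells that become plasma cells.

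Polyadenylated RNA was sequenced from RKO, an established human colon carcinoma line, in 6 groups of 2 libraries. The derivatives with gained PRDM1 overexpressed its alpha form (PRDM1α) or its beta form (PRDM1β), and a derivative overexpressing GFP served as their control. The derivatives KO2 and KO5 carried a PRDM1 knockout made with CRISPR/Cas9, and RKO cells wild type (WT) for PRDM1 were their control. Per the series title the study concerned PRDM1 and the proliferation of organoids, and the question put to these libraries is which network RNAs differ with gain or loss of PRDM1. The vector and promoter used for overexpression are not stated in the labels, nor is whether KO2 and KO5 are each 1 clone, so that a property of a derivative and an effect of PRDM1 cannot be told apart within it. It is also not stated if replicate libraries are separate cultures, so p-values measure the spread between these libraries, which may be technical.

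Levels are in CPM, counts set to a common library size, after TMM scaling, which corrects for library composition, and are given per library in replicate order. Fold changes are log2 values ± standard error (SE), with p-values from edgeR's quasi-likelihood test adjusted by Benjamini-Hochberg over all tested genes, and a gene is called at an adjusted p under 0.05. Gene counts per library ran between 19058967 and 55961821, and replicates differed beyond sampling noise in every group. PRDM1 averaged 482 CPM in alpha cells and 1173 CPM in beta cells, against 2 to 6 counts in the GFP libraries. It had 0 to 1 counts in KO2, 1 in each KO5 library and 4 in each WT library. WT was thus already close to the 3 counts taken as the floor, and a loss of PRDM1 RNA could not be detected (adjusted p = 0.0733 for KO2 and 0.299 for KO5). The epithelial keratins KRT8 (490 to 809 CPM) and KRT18 (296 to 381 CPM) and the intestinal factor CDX2 (13.0 to 17.4 CPM) were present, while EPCAM and CDX1 had 0 counts and CDH1, KRT20 and VIL1 at most 2 in any library. Of 8 fibroblast and leukocyte markers, COL1A1 and PDGFRB had reads and the other 6 had at most 2 counts. Their summed level was 11.9 to 12.8 CPM in alpha, 9.72 to 10.7 in beta, 9.12 to 9.56 in GFP, 8.37 to 8.98 in KO2, 12.3 to 12.4 in KO5 and 10.2 to 12.03 in WT; their part in the results was not tested. In bulk RNA, fewer cells that express a gene and less of its RNA per cell cannot be told apart.

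Scaled by transcript length, MYC was the most abundant member, at a mean of 149 CPM per kilobase over the 12 libraries. MLX followed at 37.9 and MAX at 22.7 CPM per kilobase. MXI1 had 11.7, MGA 7.32, MXD4 6.12, MXD1 4.84, MNT 3.87 and MXD3 2.78 CPM per kilobase, so each antagonist of MYC was measured at a lower level than MAX, their common partner.

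**Figure D1:**
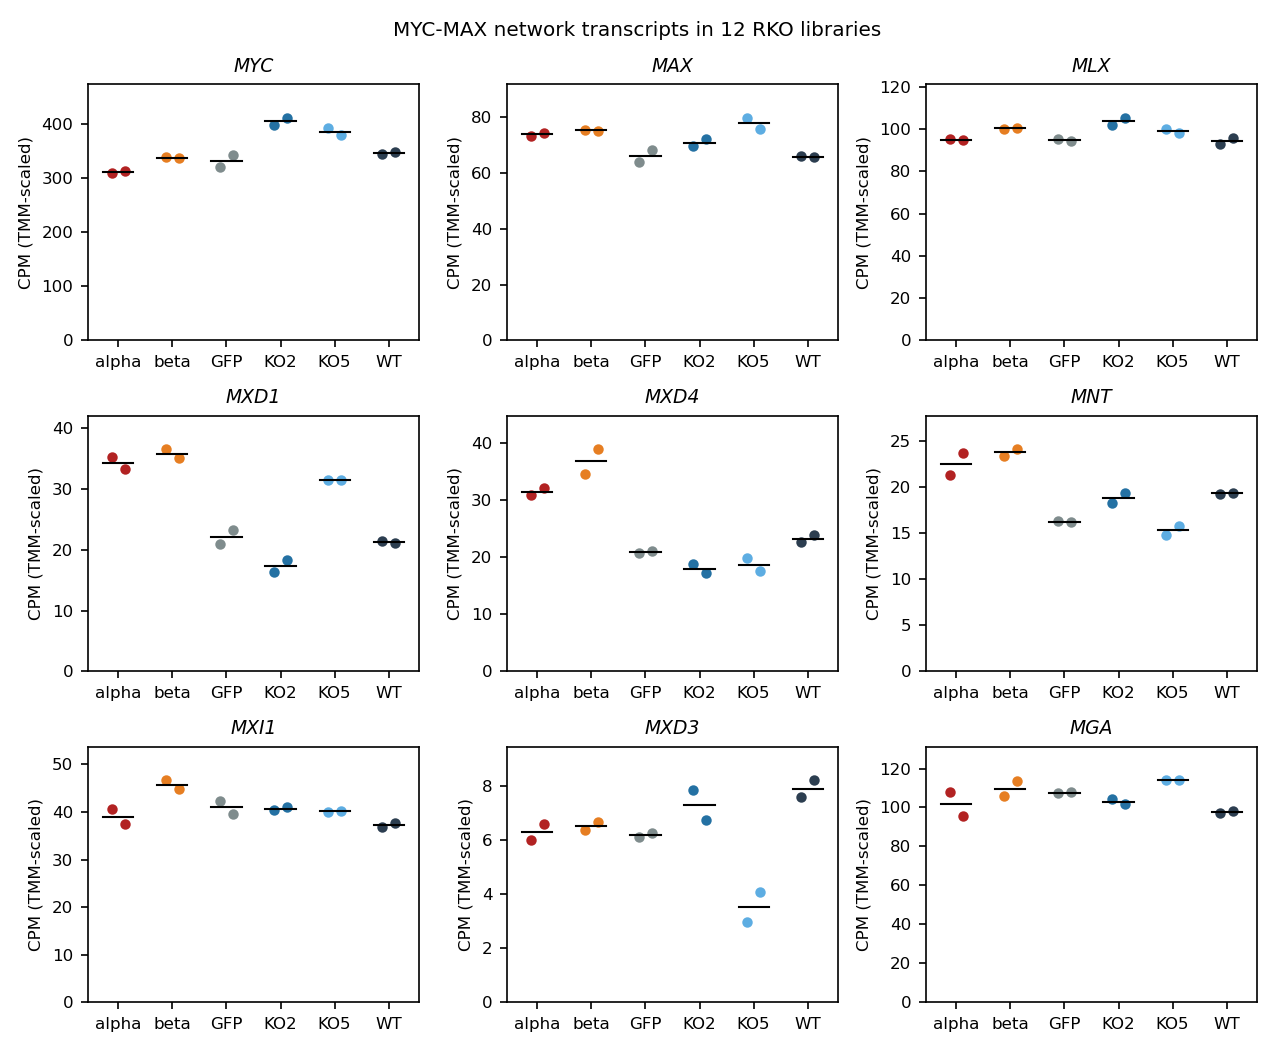
Level of each of the 9 members in every library, in TMM-scaled CPM on an axis that starts at 0, for alpha, beta, GFP, KO2, KO5 and WT; points are the 2 libraries of a group and bars their mean. MXD4, MNT and MXD1 were higher in alpha and beta than in GFP, MXD1 was also high in KO5, MXD3 was low in KO5, and MYC was highest in KO2 and KO5.

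Counted over the network, 5 of 9 members were called in alpha against GFP (4 higher, 1 lower), where 37.5% of all tested genes were called, 21.2% higher and 16.3% lower. In beta against GFP 5 were called, all higher, against 40.9% of all genes (22.9% higher, 18% lower). KO2 against WT had 6 (4 higher, 2 lower) against 30% of all genes (15.1% higher, 14.9% lower). KO5 against WT had 7 (4 higher, 3 lower) against 51.2% (25.2% higher, 25.9% lower). Direct tests called 3 members in alpha against beta, all lower in alpha, against 6.24% of all genes (3.45% higher, 2.79% lower). In KO5 against KO2 they called 5 (3 higher, 2 lower) against 54.9% (26.9% higher, 28.1% lower). GFP against WT called 3 (MGA higher, MXD3 and MNT lower) against 19% (8.81% higher, 10.2% lower). Of these 3, 0 held in edgeR's test once the trend of fold change with transcript GC content was removed, where 1 member had an unadjusted p under 0.05; DESeq2's Wald test without that removal called 1. The median log2 change over the members, of either sign, was 0.09 in size in alpha and 0.16 in beta, and 0.13 and 0.15 over all tested genes. It was 0.12 in KO2 and 0.24 in KO5, and 0.10 and 0.16 over all tested genes.

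MYC RNA was higher in both knockout derivatives than in WT. Its level was 398 and 411 CPM in KO2 and 392 and 380 CPM in KO5, against 345 and 348 CPM in WT. Every knockout library lay above both WT libraries. MYC rose by 0.22 ± 0.03 in KO2, or 16.8% (adjusted p = 4.67e-08), and by 0.16 ± 0.03 in KO5, or 11.4% (adjusted p = 2.36e-05); these comparisons share the WT libraries. KO5 and KO2 did not pass the test against each other (-0.07 ± 0.03, adjusted p = 0.05002). The difference was -0.0068 with the trend of fold change with transcript GC removed (adjusted p = 0.861). It passed with no low-count filter (adjusted p = 0.0343), with only the compared groups in the fit (adjusted p = 0.0470), and without KO5 replicate 1 or KO2 replicate 1 (-0.09 in each, adjusted p = 0.0428 and 0.0411).

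With PRDM1 gained, MYC differed between alpha and beta cells. PRDM1 RNA differed between them as well (482 and 1173 CPM), so form and PRDM1 level cannot be told apart. MYC had 309 and 312 CPM in alpha cells and 339 and 337 CPM in beta cells, against 321 and 342 CPM in GFP cells. Both alpha libraries lay below both GFP libraries, while the beta libraries lay within the GFP range. MYC fell by 0.09 ± 0.03 in alpha (adjusted p = 0.0152), and beta against GFP was 0.03 (adjusted p = 0.531). The alpha call did not hold without GFP replicate 2 (-0.06, adjusted p = 0.221), without alpha replicate 1 (-0.09, adjusted p = 0.106) or without alpha replicate 2 (-0.10, adjusted p = 0.0506). Alpha against beta was -0.12 ± 0.03 (adjusted p = 0.0121), and it passed in no fit that left out a library of either form (-0.13 to -0.11, adjusted p between 0.0643 and 0.115). GFP against WT, the controls of the 2 designs, was -0.06 (adjusted p = 0.143). In order of level the groups ran KO2, KO5, WT, beta, GFP and alpha, and among neighbours in that order the libraries of beta and GFP overlapped.

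MAX, the partner that MYC and its antagonists share, rose in all 4 derivatives relative to their controls. It had 73.4 and 74.5 CPM in alpha and 75.5 and 75.2 CPM in beta, against 64.1 and 68.5 CPM in GFP. The knockouts had 69.7 and 72.2 CPM (KO2) and 79.8 and 75.9 CPM (KO5), against 66.1 and 65.7 CPM in WT. In none of the 4 comparisons did libraries overlap. The rises were 0.16 ± 0.05 for alpha (adjusted p = 0.00420), 0.18 ± 0.05 for beta (adjusted p = 7.29e-04), 0.11 ± 0.04 for KO2 (adjusted p = 0.0355) and 0.24 ± 0.04 for KO5 (adjusted p = 1.96e-06). The alpha call was lost without GFP replicate 1 (0.11, adjusted p = 0.101). The KO2 call was lost without KO2 replicate 2 (0.08, adjusted p = 0.247), without WT replicate 1 (0.11, adjusted p = 0.0840) and without WT replicate 2 (0.10, adjusted p = 0.151). KO5 against KO2 was 0.14 ± 0.04 (adjusted p = 0.00389), lost without KO5 replicate 1 (0.10, adjusted p = 0.108) or KO2 replicate 1 (0.11, adjusted p = 0.0682).

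Among the antagonists, MXD4 and MNT were higher with either form of PRDM1. MXD4, an MXD protein known from differentiating cells, had 30.8 and 32.1 CPM in alpha and 34.6 and 38.9 CPM in beta, against 20.8 and 21.1 CPM in GFP. It rose by 0.58 ± 0.07 in alpha (adjusted p = 2.31e-09) and by 0.82 ± 0.07 in beta (adjusted p = 5.07e-14). Alpha against beta was -0.23 ± 0.07 for MXD4 (adjusted p = 0.0216), a call lost without alpha replicate 1 (-0.20, adjusted p = 0.200), alpha replicate 2 (-0.26, adjusted p = 0.0619) or beta replicate 2 (-0.14, adjusted p = 0.485). MNT, the most widely expressed antagonist, had 21.3 and 23.7 CPM in alpha and 23.4 and 24.2 CPM in beta, against 16.3 and 16.3 CPM in GFP. The lowest library with either form was above both GFP libraries for each gene. MNT rose by 0.46 ± 0.08 in alpha (adjusted p = 1.30e-06) and by 0.55 ± 0.08 in beta (adjusted p = 2.37e-08). Alpha and beta share the GFP libraries in these comparisons. For MNT, GFP was itself below WT (19.3 and 19.4 CPM), by 0.25 ± 0.07 (adjusted p = 0.00731). That GFP call was lost with the trend of fold change with transcript GC removed (-0.11, adjusted p = 0.572).

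In the knockouts MXD4 went the other way. Its level was 18.8 and 17.2 CPM in KO2 and 19.9 and 17.5 CPM in KO5, against 22.6 and 23.8 CPM in WT, with no overlap. MXD4 fell by 0.37 ± 0.06 in KO2 (adjusted p = 9.38e-06) and by 0.32 ± 0.07 in KO5 (adjusted p = 8.51e-05). MNT had 18.3 and 19.3 CPM in KO2 and 14.8 and 15.8 CPM in KO5, against 19.3 and 19.4 CPM in WT. It fell in KO5 by 0.34 ± 0.07 (adjusted p = 4.09e-05), and was -0.04 in KO2 (adjusted p = 0.653). These RNAs are rich in G and C, at 64.0% for MXD4 and 61.4% for MNT. Over 12122 genes the log2 fold change had a Spearman correlation with transcript GC of -0.52 in KO5 against WT and -0.67 in GFP against WT, set beside 0.18 in alpha against GFP, 0.14 in beta against GFP and -0.07 in KO2 against WT. With that trend removed, the KO5 values were -0.06 for MXD4 (adjusted p = 0.486) and -0.13 for MNT (adjusted p = 0.102), so neither KO5 call held. The direct difference of KO5 and KO2 for MNT was -0.29 ± 0.07 (adjusted p = 2.96e-04), and -0.12 with the trend removed (adjusted p = 0.134). The other values with the trend removed were 0.46 and 0.67 for MXD4 in alpha and beta, -0.32 for MXD4 in KO2, and 0.37 and 0.46 for MNT in alpha and beta, all still past the test.

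MXD1, induced in maturing blood and epithelial cells, was higher with either form and split the knockouts. It had 35.3 and 33.2 CPM in alpha and 36.6 and 35.1 CPM in beta, against 21.0 and 23.2 CPM in GFP. MXD1 rose by 0.63 ± 0.07 in alpha (adjusted p = 4.32e-11) and by 0.69 ± 0.07 in beta (adjusted p = 2.34e-12). The knockout libraries had 16.3 and 18.4 CPM in KO2 and 31.5 and 31.5 CPM in KO5, against 21.4 and 21.1 CPM in WT. KO2 lay below WT and KO5 above it, without overlap. The change was -0.30 ± 0.06 in KO2 (adjusted p = 1.64e-04) and 0.57 ± 0.06 in KO5 (adjusted p = 2.89e-11). KO5 against KO2, tested directly, was 0.87 ± 0.06 (adjusted p = 1.88e-16).

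Promoter windows of MXD4, MNT, MLX and MXD1 are shown as a description of sequence, marked for the E-box, the motif that network members themselves bind. Each window holds 250 bases before to 50 after the start in the RefSeq table of build GRCh38.p14, printed 5′ to 3′ on the gene's strand, with CACGTG, which reads the same on both strands, in capitals. MXD4 is from chr4:2262060-2262359 (minus strand), MNT from chr17:2401011-2401310 (minus), MLX from chr17:42566850-42567149 (plus) and MXD1 from chr2:69914859-69915158 (plus).
MXD4: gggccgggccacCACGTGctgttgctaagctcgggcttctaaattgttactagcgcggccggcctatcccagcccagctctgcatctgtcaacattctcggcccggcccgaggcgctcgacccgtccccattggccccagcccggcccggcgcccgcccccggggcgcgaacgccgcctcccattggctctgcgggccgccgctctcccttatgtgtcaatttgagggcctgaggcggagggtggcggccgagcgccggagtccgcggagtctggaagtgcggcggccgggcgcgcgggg
MNT: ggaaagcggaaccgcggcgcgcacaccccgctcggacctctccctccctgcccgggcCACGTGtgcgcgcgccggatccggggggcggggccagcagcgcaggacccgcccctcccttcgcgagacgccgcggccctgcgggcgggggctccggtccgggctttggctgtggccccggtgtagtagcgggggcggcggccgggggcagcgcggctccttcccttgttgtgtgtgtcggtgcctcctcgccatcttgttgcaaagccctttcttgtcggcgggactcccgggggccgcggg
MLX: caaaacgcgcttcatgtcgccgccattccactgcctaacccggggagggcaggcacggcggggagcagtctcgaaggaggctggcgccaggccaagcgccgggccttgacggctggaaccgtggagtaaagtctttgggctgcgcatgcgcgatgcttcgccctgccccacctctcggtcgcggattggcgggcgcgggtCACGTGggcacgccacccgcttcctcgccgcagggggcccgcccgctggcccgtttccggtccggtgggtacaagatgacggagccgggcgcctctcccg
MXD1: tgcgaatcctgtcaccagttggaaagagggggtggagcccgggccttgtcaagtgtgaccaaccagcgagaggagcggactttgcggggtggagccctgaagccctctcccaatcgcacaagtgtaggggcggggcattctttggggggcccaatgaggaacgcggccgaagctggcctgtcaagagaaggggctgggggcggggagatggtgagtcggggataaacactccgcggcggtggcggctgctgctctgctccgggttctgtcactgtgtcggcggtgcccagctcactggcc
The E-box began 238 bases before the start in MXD4, 193 in MNT and 50 in MLX, and the MXD1 window held none. Of 13 windows for the 8 members found in the table (MYC was not among them), 3 held it, against 7.26% of all 35116 windows of this length. The 8-base PRDM1 core AGNGAAAG, searched on both strands, was in 0 of the 13, against 7.99% of all windows. Of the printed genes, MXD4, MNT and MXD1 rose with either form. MLX did not pass the test with either form in the fit reported (with the GC trend removed it was 0.09 in beta, adjusted p = 0.0476). Whether the motif has a part in any change was not tested. A match or its absence is a description of these letters and not of binding.

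MXI1, a further MXD-family antagonist, differed between alpha and beta cells. It had 40.6 and 37.4 CPM in alpha and 46.7 and 44.8 CPM in beta, against 42.3 and 39.6 CPM in GFP. Beta lay above both other groups, and alpha overlapped GFP. The changes were -0.07 in alpha (adjusted p = 0.351), 0.16 ± 0.06 in beta (adjusted p = 0.0150) and -0.23 ± 0.06 for alpha against beta (adjusted p = 0.00612). The beta call was lost without beta replicate 1 (0.13, adjusted p = 0.126) and without GFP replicate 2 (0.10, adjusted p = 0.254), and the difference between the forms without alpha replicate 2 (-0.17, adjusted p = 0.171) and without beta replicate 1 (-0.20, adjusted p = 0.0931). KO2 passed at 0.12 ± 0.05 (adjusted p = 0.0410), a call lost without any library of KO2 or WT (0.11 to 0.14), and KO5 was 0.10 (adjusted p = 0.0697).

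MXD3, expressed in dividing cells and the least abundant member, had its largest change in KO5. Its level was 2.97 and 4.08 CPM in KO5 and 7.88 and 6.75 CPM in KO2, against 7.59 and 8.24 CPM in WT. Both KO5 libraries were lower than every other library, KO2 and WT overlapped, and the KO5 replicates were far apart in relative terms. MXD3 fell by 1.18 ± 0.13 in KO5 against WT (adjusted p = 3.59e-11) and by 1.07 ± 0.13 in KO5 against KO2 (adjusted p = 9.88e-10), while KO2 against WT was -0.11 (adjusted p = 0.403). Alpha and beta were 0.03 and 0.08 against GFP (adjusted p = 0.907 and 0.651).

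**Figure D2:**
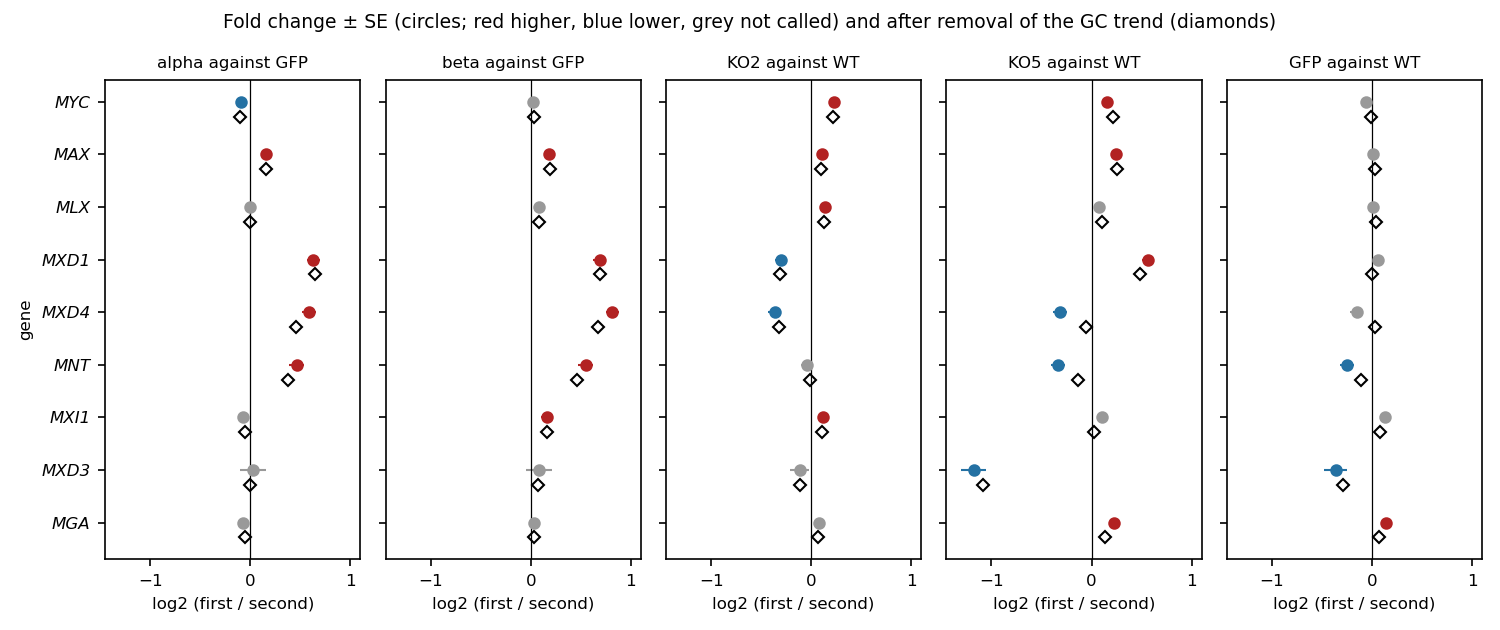
Log2 fold change of each member (first group over second) in 5 comparisons, circles with SE bars for the fit reported (red called higher, blue called lower, grey not called) and diamonds for values after the trend with transcript GC was removed; the line at 0 marks no difference. The antagonists MXD4, MNT and MXD1 lay to the right in alpha and beta against GFP, and the MXD4 and MNT values in KO5 against WT moved towards 0 without the GC trend.

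MGA, the scaffold of the Polycomb complex PRC1.6, rose in KO5. It had 114 and 114 CPM in KO5 and 104 and 102 CPM in KO2, against 97.0 and 98.3 CPM in WT. KO5 against WT was 0.22 ± 0.04 (adjusted p = 5.87e-06), and 0.13 with the GC trend removed (adjusted p = 0.00567). KO5 against KO2 was 0.15 ± 0.04 (adjusted p = 0.00169), a call that did not hold with the trend removed (0.06, adjusted p = 0.176). Alpha and beta were -0.08 and 0.03 against GFP (adjusted p = 0.160 and 0.611). Without alpha replicate 1, MGA passed as lower in alpha (-0.17, adjusted p = 0.00635).

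MLX had 95.3 and 94.8 CPM in alpha and 100.0 and 100.7 CPM in beta, against 95.6 and 94.5 CPM in GFP. Alpha could not be set apart from GFP, with a 95% interval of the log2 difference of -0.08 to 0.08. In KO2 it rose by 0.14 ± 0.04 (adjusted p = 0.00155), and KO5 was 0.07 (adjusted p = 0.0708). With the GC trend removed, MLX passed as higher in beta against GFP (0.09, adjusted p = 0.0476) and in KO5 against WT (0.10, adjusted p = 0.0118).

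Overexpression, as the mean of alpha and beta, was also set against knockout, as the mean of KO2 and KO5. These arms differ in control and derivation, and 58.8% of all tested genes were called (31% higher, 27.7% lower), beside 5 of 9 members. MYC fell by 0.29 ± 0.02, or 18.0% (adjusted p = 7.70e-16), and no overexpression library reached a knockout library. MXD4 was higher by 0.89 ± 0.05 (adjusted p = 3.30e-21), MXD1 by 0.59 ± 0.04 (adjusted p = 5.00e-16) and MNT by 0.45 ± 0.05 (adjusted p = 9.74e-11). The SE and p-values of this contrast use the spread between libraries within groups and leave out the spread between derivatives. MXD1 averaged 17.3 CPM in KO2 and 31.5 CPM in KO5, beside 34.2 CPM in alpha and 35.8 CPM in beta. MXD3 passed at 0.34 ± 0.09 (adjusted p = 0.00206), but its libraries overlap, both KO2 libraries were above every overexpression library, and without KO5 replicate 1 it was 0.23 (adjusted p = 0.0536). The authors' deposited table, built on alpha or beta and both knockouts, gives MYC a log2 fold change of -0.35 for alpha and -0.23 for beta (adjusted p = 7.90e-09 and 3.10e-04). In the authors' deposited table MXD4 is 0.72 and 0.93 (adjusted p = 2.40e-11 and 4.44e-17), MNT 0.34 and 0.42 (adjusted p = 0.0475 and 0.00678), and MXD1 0.33 and 0.38 (adjusted p = 0.256 and 0.157).

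The ratio of MYC to the summed antagonists MXD1, MXI1, MXD3, MXD4 and MNT, each per kilobase, puts these levels together. It was 4.02 and 4.09 in alpha and 3.97 and 3.90 in beta, against 5.02 and 5.39 in GFP. In the knockouts the ratio was 6.38 and 6.64 (KO2) and 6.28 and 6.05 (KO5), against 5.35 and 5.24 in WT. Every overexpression library was below, and every knockout library above, all 4 control libraries. The ratio of MYC to MAX per kilobase was 5.62 and 5.59 in alpha and 5.98 and 5.97 in beta, against 6.68 and 6.66 in GFP. It was 7.61 and 7.59 in KO2 and 6.54 and 6.68 in KO5, against 6.95 and 7.06 in WT. These are ratios of RNA levels, described without a test.

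Across the 12 libraries, which share the 6 group means, MXD4 and MNT had the highest correlation among pairs of members (Pearson r = 0.84, Spearman rho = 0.78). All correlations given here use levels with the transcript GC trend left in. MXD4 and MNT have the highest transcript GC of the members (64.0% and 61.4%), and the part of that trend in their correlation was not tested. MAX and MXD1 had r = 0.71 and rho = 0.64, and MYC and MLX r = 0.73 and rho = 0.58. MYC and MXD4 had the lowest r, -0.71 (rho = -0.76). Of 10040 genes with a mean of at least 5 CPM, those most like MYC over the libraries were ERCC3, a DNA helicase of the transcription factor TFIIH (r = 0.95), POLR2H, a subunit shared by the RNA polymerases (r = 0.95), MALSU1, an assembly factor of mitochondrial ribosomes (r = 0.95), CMBL, a hydrolase (r = 0.94), and CRIM1, a membrane protein that binds BMPs (r = 0.93). Lowest were the zinc finger genes ZNF527, ZNF780A and ZNF571, each at r = -0.97.

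Genes that MYC is known to activate, 39 of them tested, were mostly higher in KO2, where 26 rose and 2 fell with a median log2 change of 0.14. Over all tested genes the median was -0.0014, and 15.1% were called higher and 14.9% lower. NOP56, a ribosome assembly factor, rose by 0.26 in KO2 (388 and 399 CPM, against 329 and 329 CPM in WT). In KO5, 16 rose and 6 fell, or 19 and 4 with the GC trend removed, with all tested genes at 25.2% higher and 25.9% lower. Alpha had 9 higher and 11 lower and beta 8 higher and 13 lower, and their medians were -0.03 and -0.04, beside 0.01 and 0.01 over all tested genes. Of all tested genes, 21.2% were called higher and 16.3% lower in alpha, and 22.9% and 18% in beta, so the counts of higher genes were near these shares.

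RRS1, required to build the large ribosomal subunit, had the largest change of that list in alpha, beta and KO2. It had 91.5 and 92.0 CPM in alpha and 80.8 and 83.3 CPM in beta, against 133 and 141 CPM in GFP. The knockouts had 203 and 203 CPM in KO2 and 113 and 111 CPM in KO5, against 136 and 140 CPM in WT. RRS1 fell by 0.58 in alpha, 0.74 in beta and 0.31 in KO5 and rose by 0.56 in KO2, each past the test. CCND2, a D-type cyclin, and TFRC, the transferrin receptor, are on the same list and rose with PRDM1. CCND2 was higher by 0.53 in alpha and 0.62 in beta, and TFRC by 0.38 and 0.49.

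Genes that MYC is known to repress, 7 tested, had 5 higher and 2 lower in alpha and 5 higher and 0 lower in beta (edgeR; 0 lower at an unadjusted p under 0.05 also). CDKN1A, a cell cycle inhibitor, had 111 and 107 CPM in alpha and 109 and 108 CPM in beta, against 66.2 and 68.5 CPM in GFP. It rose by 0.69 in each, by 0.19 in KO2 and by 0.54 in KO5. CDKN2B, a CDK4/6 inhibitor, fell by 0.95 in alpha and by 1.05 in KO2. Its mean was also lower in KO5, at 14.7 CPM, against 20.7 CPM in WT. CDKN1C, a related cell cycle inhibitor, rose by 0.82 in beta and fell by 0.69 in KO5, or by 0.44 with the GC trend removed. Its mean was 11.2 CPM in alpha and 14.1 CPM in beta, against 7.99 CPM in GFP. In KO2 CDKN1C fell by 0.22 (adjusted p = 0.0416), a call lost with the GC trend removed (-0.18, adjusted p = 0.0944). GADD45A, a stress gene, rose by 0.61 in alpha and 0.64 in KO5. KO2 had 1 member higher and 4 lower, and KO5 2 and 2, the last about the share of all genes. Over all tested genes 21.2% were higher and 16.3% lower in alpha, 22.9% and 18% in beta, 15.1% and 14.9% in KO2, and 25.2% and 25.9% in KO5. The list's median log2 change was 0.48 in alpha and 0.50 in beta, and -0.14 in KO2 and -0.07 in KO5. With the GC trend removed, the list had 3 higher and 3 lower in KO5, and its median there was 0.06.

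**Figure D3:**
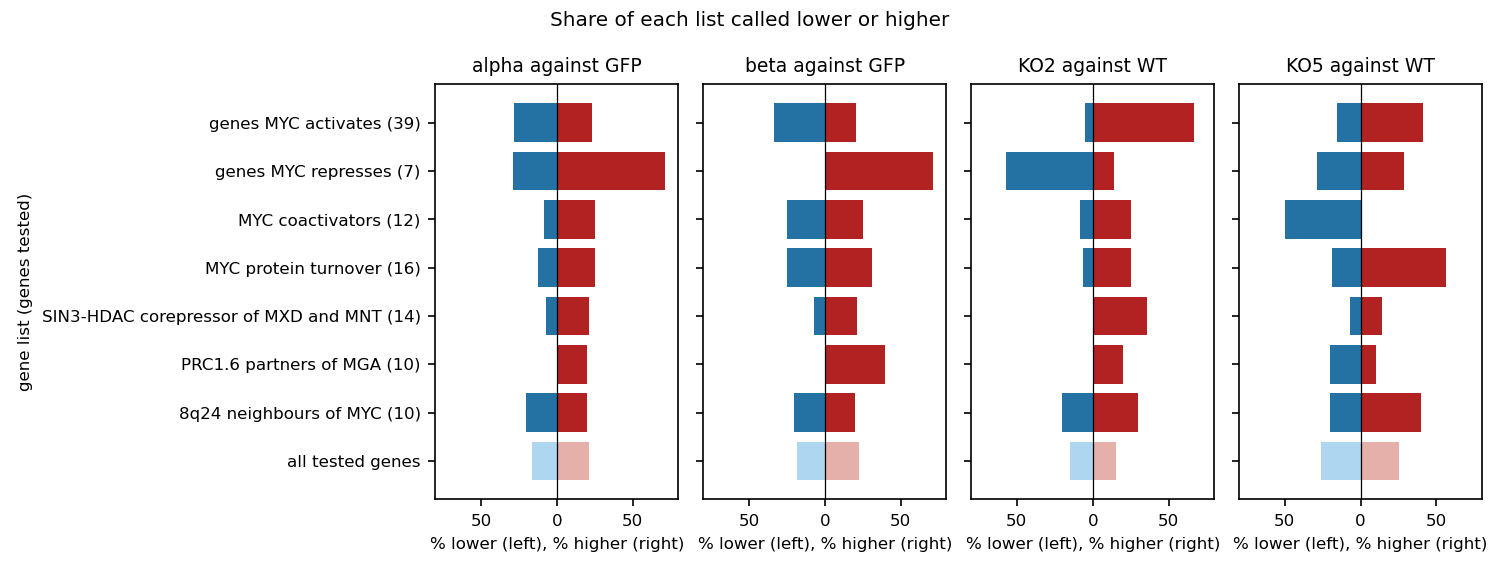
Share of each list of network genes called lower or higher in 4 comparisons, in percent of its tested genes, beside the share of all 12858 tested genes. Genes activated by MYC stood at 26 of 39 higher in KO2, and genes repressed by MYC at 5 of 7 higher in alpha and in beta.

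Of 12 MYC coactivators, 3 rose and 1 fell in alpha, 3 rose and 3 fell in beta, and 3 rose and 1 fell in KO2. In KO5, 6 fell and 0 rose (0 also at an unadjusted p under 0.05 by edgeR), and with the GC trend removed 2 rose and 1 fell. RUVBL1, a chromatin ATPase, fell by 0.24 in alpha and 0.31 in beta, and EP300, a histone acetyltransferase, rose by 0.24 in alpha and 0.26 in beta. Of 16 genes of MYC protein turnover, 4 rose and 2 fell in alpha, 5 rose and 4 fell in beta, 4 rose and 1 fell in KO2, and 9 rose and 3 fell in KO5. With the GC trend removed, 6 of these 16 rose and 2 fell in KO5. Of all tested genes, 21.2% rose and 16.3% fell in alpha, 22.9% and 18% in beta, 15.1% and 14.9% in KO2, and 25.2% and 25.9% in KO5, so the counts of both lists in alpha and beta were near those of all genes. FBXW7, a ubiquitin ligase subunit that marks MYC for breakdown, had 45.01 and 44.3 CPM in KO5, against 32.6 and 31.2 CPM in WT, a rise of 0.49. AURKA, a kinase known to stabilise MYC-family proteins, fell by 0.23 in alpha and 0.15 in beta and rose by 0.15 in KO2.

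SIN3-HDAC subunits, 14 tested, had 3 higher and 1 lower in alpha and in beta, 5 higher and 0 lower in KO2 (0 lower at an unadjusted p under 0.05, edgeR), and 2 higher and 1 lower in KO5. Of all tested genes, 21.2% were higher and 16.3% lower in alpha, 22.9% and 18% in beta, 15.1% and 14.9% in KO2, and 25.2% and 25.9% in KO5, so the counts in alpha and beta were near these shares or below them. The 2 higher in KO5 were HDAC2, a histone deacetylase, and SAP18, a subunit of the complex, and neither held with the GC trend removed (0.03 and -0.0095, adjusted p = 0.482 and 0.840). HDAC1, a paralogue of HDAC2, fell by 0.16 in alpha. Its mean was 215 CPM in alpha and 217 CPM in beta, against 241 CPM in GFP. SIN3B, a scaffold, rose by 0.20 in alpha and 0.16 in beta. With the GC trend removed SIN3B was 0.13 in alpha (adjusted p = 0.0250) and 0.09 in beta, where the call was lost (adjusted p = 0.0994). PRC1.6 partners of MGA, 10 tested, had 2 higher in alpha and 4 in beta, with 0 lower in each (0 lower at an unadjusted p under 0.05, edgeR). The alpha count of higher genes was near the share of all genes. KO2 had 2 of these partners higher and 0 lower (1 lower at an unadjusted p under 0.05, edgeR), and KO5 had 1 higher and 2 lower. RNF2, a ubiquitin ligase of Polycomb complexes, rose by 0.15 in alpha and 0.24 in beta. In overexpression against knockout 8 of the 10 were higher, where 31% of all genes were.

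MYCN had 0 counts in every library, and MYCL, a paralogue of MYC, lay between 6.92 and 9.85 CPM. MLXIP, which encodes MondoA, rose by 0.25 in alpha and 0.23 in beta, at 143 and 149 CPM in alpha and 142 and 145 CPM in beta, against 129 and 117 CPM in GFP.

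TXNIP, ARRDC4 and KLF10 are known to be driven by MLX with MondoA. TXNIP, a brake on glucose uptake, had 146 and 149 CPM in KO5 and 86.5 and 87.6 CPM in KO2, against 94.4 and 93.6 CPM in WT. ARRDC4, a related arrestin-domain gene, had 93.6 and 94.4 CPM in KO5 and 48.6 and 48.7 CPM in KO2, against 53.8 and 53.5 CPM in WT. Both were highest in KO5 and slightly below WT in KO2. TXNIP changed by 0.65 in KO5 and -0.11 in KO2 (adjusted p = 2.86e-21 and 0.0115), and ARRDC4 by 0.81 and -0.14 (adjusted p = 9.33e-22 and 0.0103). KLF10, a zinc finger factor, rose by 0.47 in alpha and 0.43 in beta, where TXNIP fell by 0.16 and 0.15.

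Noncoding genes beside MYC on 8q24 stood apart in KO5. PVT1, a host of MYC-linked enhancers, had 48.9 and 48.6 CPM in KO5 and 20.04 and 19.9 CPM in KO2, against 19.0 and 20.5 CPM in WT. CCAT1, an RNA known from colon tumours, had 31.7 and 33.2 CPM in KO5 and 5.80 and 4.57 CPM in KO2, against 9.03 and 9.05 CPM in WT. CASC8 had 9.84 and 9.53 CPM in KO5, against 3.48 and 2.88 CPM in WT. The KO5 libraries were above all others for each gene, and CCAT1 in KO2 was below all others. In KO5 the rises were 1.30 for PVT1 (adjusted p = 1.40e-25), 1.84 for CCAT1 (adjusted p = 1.20e-25) and 1.63 for CASC8 (adjusted p = 1.03e-16), and CCAT1 fell by 0.78 in KO2 (adjusted p = 1.44e-08). MYC itself was 0.16 higher in KO5. Of 10 neighbours tested, 4 rose and 2 fell in KO5, where 25.2% of all tested genes rose and 25.9% fell, and 3 rose and 2 fell in KO2, where 15.1% rose and 14.9% fell. TRIB1, a pseudokinase gene, fell by 0.57 in KO2, to a mean of 79.8 CPM, against 118 CPM in WT. Its mean over both knockouts was 83.9 CPM, so KO5 averaged below WT as well. TRIB1 rose by 0.30 in beta against GFP, and GFP against WT was 0.19. PVT1 fell by 0.23 in alpha and 0.25 in beta. Whether the counting used strand is not stated, so reads of overlapping noncoding genes here are uncertain.

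**Figure D4:**
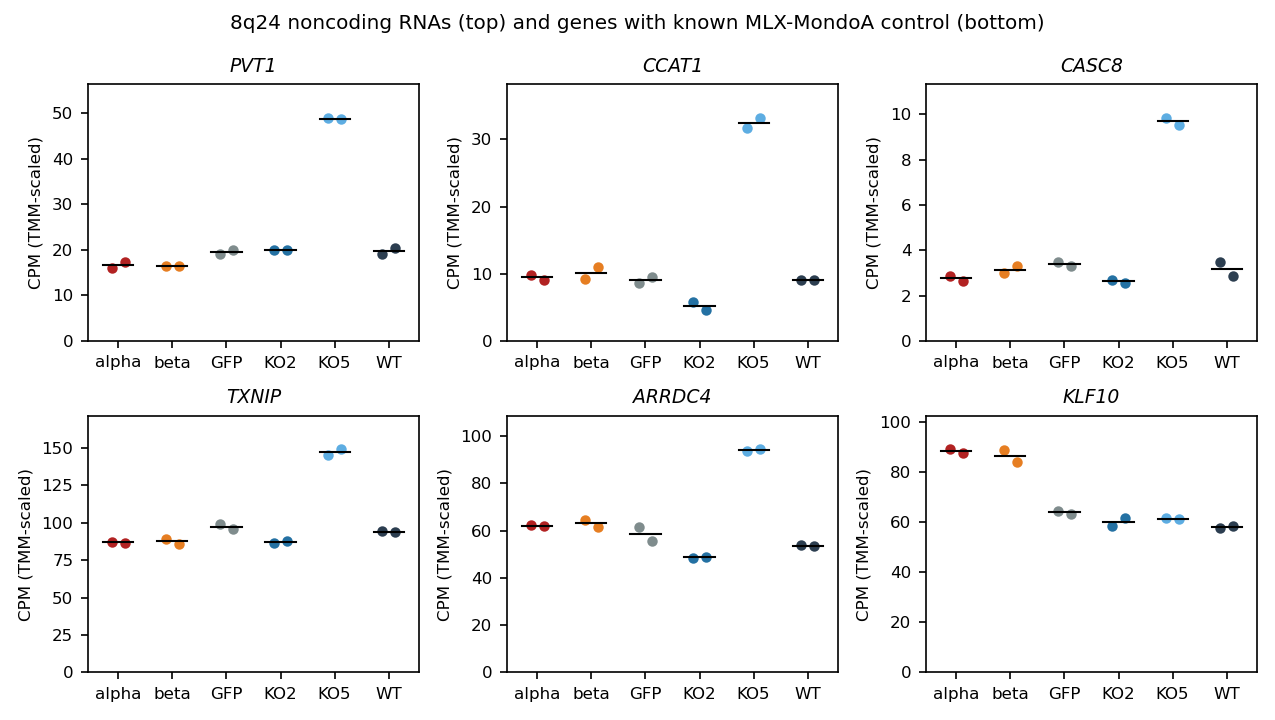
Levels in TMM-scaled CPM, on axes that start at 0, of the 8q24 noncoding genes PVT1, CCAT1 and CASC8 (top) and of TXNIP, ARRDC4 and KLF10 (bottom) in each library; bars are group means. KO5 was highest for PVT1, CCAT1, CASC8, TXNIP and ARRDC4, and KLF10 was highest in alpha and beta.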

How the data were processed

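The authors deposited raw counts, whole reads per gene symbol in 1 file a library. TopHat, Bowtie2, Cufflinks and build hg19 are named per the submitters' processing notes, with no versions or roles; the read counter and its strand setting are not given in the sources used here, while the library kit was stranded per the labels. The 2 entries per file that named no gene held 9.13% to 10.8% (no feature) and 1.66% to 1.75% (ambiguous) of reads and were left out. The authors' deposited comparison tables hold log2 fold changes with standard errors, p-values and adjusted p-values, a score (the Wald statistic) and the mean of normalized counts; the deposited table named for both forms repeats the beta table and is left out.

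The model was edgeR 4.0.16's, run in R 4.3.3. Genes passed filterByExpr at its defaults (12858 of 26364), libraries were scaled by TMM (factors 0.983 to 1.01), and 1 robust quasi-likelihood fit with a mean for each group took in all 12 libraries, which then share their estimate of the spread. There were 8 comparisons, tested with glmQLFTest and Benjamini-Hochberg adjustment over all tested genes at 0.05. Depth was 19058967 to 55961821 gene counts per library, so 3 counts, taken as the floor, are at most 0.157 CPM; floors cover counting error only. Standard errors come from the fitted means and dispersions. Levels per kilobase used the longest coding transcript of a gene in the reference annotation, and the GC trend was fitted over the 94.3% of tested genes matched to one. Members, lists and the naming rule were chosen with earlier results of these data known. The text names all 9 members, up to 3 called members of a list per comparison (largest change, at least 5 CPM), the 5 genes most and 3 least like MYC, and PRDM1; part of the genes so named are given. CASC8 is below 5 CPM outside KO5.

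Replicate numbers did not pair libraries (0 of 15 pairs of groups had correlated deviations over 0.1). The fit was repeated with each library left out, the GC trend removed, a replicate block, the compared groups alone, every gene kept, size factors of DESeq2, and DESeq2 1.42.0's own Wald test.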

Additional observations from a re-analysis of the deposited data

Results flagged for a closer look

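In alpha against beta, where form and PRDM1 level cannot be told apart, 3 members differed by the direct test. MYC was lower in alpha (-0.12), as were MXI1 (-0.23) and MXD4 (-0.23). Each call was lost without at least 1 library of the forms, with values between -0.13 and -0.11 for MYC, -0.17 and -0.20 for MXI1 and between -0.26 and -0.14 for MXD4 in the fits that lost it.

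Between KO5 and KO2, 5 members differed by the direct test. MXD1 (0.87), MGA (0.15) and MAX (0.14) were higher in KO5, and MXD3 (-1.07) and MNT (-0.29) lower. With the GC trend removed, MGA (0.06, adjusted p = 0.176) and MNT (-0.12, adjusted p = 0.134) no longer passed, and MAX did not pass without KO5 replicate 1 (0.10, adjusted p = 0.108) or KO2 replicate 1 (0.11, adjusted p = 0.0682). With 2 libraries per group, no library was tested as standing apart from its group.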

How the results depend on the processing

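Leaving out a library leaves 1 in its group, assumed to vary like the other groups. Member counts stayed within 1.5 times of the value reported in 6 of the 8 comparisons under every alternative. In GFP against WT, 3 members were called by edgeR, 1 by DESeq2's Wald test (which gave MXD3 no adjusted p), 0 with the GC trend removed (1 at an unadjusted p under 0.05) and 0 to 2 without 1 library. Alpha against beta had 0 to 2 members without 1 library, set beside 3.

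Genes called fell with DESeq2's Wald test to 442 in alpha against beta (802 by edgeR), 2425 in KO2 against WT (3857) and 1477 in GFP against WT (2444), and with the GC trend removed to 140 in GFP against WT. Without 1 library, 395 to 495, 2563 to 3150 and 645 to 2110 genes were called in these comparisons, lowest without beta replicate 2 in alpha against beta and without WT replicate 2 in the others. DESeq2's Wald test also lost MXI1 in beta against GFP (0.15, adjusted p = 0.0837), MXD4 in alpha against beta (-0.23, adjusted p = 0.160), and MAX and MXI1 in KO2 against WT (0.11 and 0.13, adjusted p = 0.112 and 0.146). The cause was not tested.

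None of the values that turned sign passed the test in the fit reported. MLX in alpha against GFP was -0.0085 with DESeq2 size factors, -0.00475 with no filter, -0.0085 with DESeq2, -0.013 with only the compared groups, -0.0055 with the GC trend removed and -0.019 to 0.0086 without 1 library. Overexpression against knockout gave MAX -0.0016 with only the compared groups and -0.022 to 0.026 without 1 library, and MGA -0.082 to 0.0075. With the GC trend removed, GFP against WT was -0.0022 for MXD1 and 0.0274 for MXD4. Without 1 library, GFP against WT ran -0.016 to 0.13 for MXD1, -0.040 to 0.056 for MAX and -0.0087 to 0.038 for MLX. Likewise MXD4 in KO5 against KO2 ran -0.048 to 0.14, and it was 0.26 with the GC trend removed (adjusted p = 7.45e-04). MYC in beta against GFP ran -0.018 to 0.061, MXD3 -0.12 to 0.012 in alpha against beta and -0.037 to 0.095 in alpha against GFP, and MGA -0.17 to 0.0075 in alpha against GFP and -0.025 to 0.077 in beta against GFP.

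With the replicate number as a block, MYC in alpha against GFP was -0.09 (adjusted p = 0.0181), and the block changed 0 of 72 member calls. Depth limits MXD3 most, at 88 counts in its lowest library. PRDM1 was near the floor in WT already, at 4 counts in each library, which limits its comparison with the knockouts.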
